A study of Mus musculus with 18 samples.

Results

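The 7 genes described here, Hprt, Actb, Tbp, Ppia, Gusb, Ywhaz and Polr2a, are in common use as reference genes, against which the mRNA of other genes is expressed in quantitative PCR (qPCR). They were chosen by name, and all 7 were among the 15402 genes of the table and among the 13190 that were tested. Hprt was the reference gene of the study's own qPCR.

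A reference gene is meant to have the same level in every sample compared, so that any change in the reference enters the change of the gene of interest. T cells that are activated grow, enlarge their pools of ribosomes, nucleotides and actin, and enter the cell cycle, and many housekeeping genes serve those same processes. The 7 genes serve different ones. Hprt encodes the enzyme that salvages hypoxanthine and guanine for purine nucleotides. Actb encodes the cytoplasmic actin of the cytoskeleton, Ppia the prolyl isomerase cyclophilin A, Gusb a lysosomal glycosidase, Ywhaz a 14-3-3 protein that binds phosphorylated partners, and Tbp and Polr2a the TATA-binding protein and the largest subunit of RNA polymerase II.

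RNA was sequenced from 6 populations of CD4+ T cells, with 3 libraries each (18 in all), sorted from draining lymph nodes of female mice 5 days after 3% oxazolone, a contact sensitiser, had been applied to the abdominal skin. All mice carried the Foxp3Timer transgene, whose fluorescent protein matures from a blue to a red form, and a Foxp3-IRES-GFP allele on the C57/BL6 background, so the Timer-negative cells came from the same treated animals and no untreated group was sequenced. Each library was made from a pool of 3 mice. Tnaive cells were CD44lo and Teff cells CD44hi, both negative for GFP and Timer, and the 4 Timer+ populations were Pers1 and Pers2, the persistent Foxp3 expressors (labelled de novo and maturing), PAt (labelled mature) and Arrested (labelled decaying). The authors deposited log2 values of normalised read counts, so the sequencing depth is unknown here (read counts were not used) and the errors below rest on the 3 libraries of each population. Fold changes come from 1 limma model over the 18 libraries, with Benjamini-Hochberg adjustment over the 13190 tested genes. A gene is said to have risen or fallen at an adjusted p under 0.05. The study's own rule, which also asks for a log2 fold change over 1, was passed by none of the 7 genes in any of the 8 comparisons. That rule was passed by 15.4% of all tested genes for the persistent populations against Tnaive, 11.2% for Teff against Tnaive, 8.42% for the difference of the shifts described below, 8.31% for persistent against Teff, 7.9% for PAt and Arrested against Tnaive and 7.51% for persistent against PAt and Arrested. It was passed by 0.19% from Pers1 to Pers2 and 0.121% from PAt to Arrested.

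The populations carried their labels in the data, and summed levels of markers of other cells were lower than those of T cell markers. Whether other cells were present was not tested. The summed level of 6 T cell markers was 16.6 to 17.3 on the log2 scale in all libraries. Summed levels of B cell, CD8 T cell, macrophage, NK cell and plasmacytoid dendritic cell markers were all highest in Teff, where they ran from 8.12 for NK cells to 12.2 for B cells, and no marker was at 0. All 14 proliferation genes rose in the persistent populations against PAt and Arrested, 13 of them past a log2 fold change of 1, with a median of 1.91. Of all 13190 tested genes, 35.9% rose in that comparison, and 625 rose past a log2 fold change of 1. Mki67, a marker of cycling cells, averaged 8.48 in Tnaive, 12.62 in Teff, 11.65 in PAt and 11.63 in Arrested, and 14.51 and 14.54 in Pers1 and Pers2. The median of all tested genes within a library differed by up to 0.15 on the log2 scale between populations, lowest in Tnaive and highest in Pers2, and results that depend on this shift are named as such below.

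The genes lie on separate parts of the mouse genome (GENCODE annotation on GRCm38, the build mm10 of the authors). Hprt spans chromosome X from 52988137 to 53021659, Tbp chromosome 17 from 15499888 to 15528379 and Ppia chromosome 11 from 6415443 to 6419817, on the plus strand. On the minus strand, Polr2a spans chromosome 11 from 69733997 to 69758637, Actb chromosome 5 from 142903115 to 142906754, Gusb chromosome 5 from 129989011 to 130003049 and Ywhaz chromosome 15 from 36770770 to 36796929. RefSeq promoter sequences on GRCm38.p6 matched 5 of the 7 genes (not Actb or Ywhaz), and 4 are shown because these genes moved in opposite directions or least of all. The RefSeq starts of Hprt, Ppia and Polr2a differ from the GENCODE starts, and the Ppia and Polr2a windows overlap the GENCODE spans. Each window is the 250 bases before the RefSeq start, 5′ to 3′ on the strand of the gene. Capitals mark the TATA box (TATAAA) and the GC box (GGGCGG, or CCGCCC where it lies on the other strand), which were searched on both strands together with the CCAAT box, the E-box (letters CACGTG), the E2F site (letters TTTCGCG) and the CArG box.
Hprt, chrX:52987828-52988077, plus strand: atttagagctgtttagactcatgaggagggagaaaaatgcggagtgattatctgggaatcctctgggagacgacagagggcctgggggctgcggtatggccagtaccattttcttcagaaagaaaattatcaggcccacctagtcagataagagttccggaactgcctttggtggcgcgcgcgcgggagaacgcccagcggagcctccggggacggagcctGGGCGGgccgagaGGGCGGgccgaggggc
Tbp, chr17:15499638-15499887, plus strand: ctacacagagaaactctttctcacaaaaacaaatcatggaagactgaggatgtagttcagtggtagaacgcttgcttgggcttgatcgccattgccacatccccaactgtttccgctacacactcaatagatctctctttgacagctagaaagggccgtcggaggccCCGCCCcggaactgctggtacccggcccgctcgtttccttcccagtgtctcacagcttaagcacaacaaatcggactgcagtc
Ppia, chr11:6415617-6415866, plus strand: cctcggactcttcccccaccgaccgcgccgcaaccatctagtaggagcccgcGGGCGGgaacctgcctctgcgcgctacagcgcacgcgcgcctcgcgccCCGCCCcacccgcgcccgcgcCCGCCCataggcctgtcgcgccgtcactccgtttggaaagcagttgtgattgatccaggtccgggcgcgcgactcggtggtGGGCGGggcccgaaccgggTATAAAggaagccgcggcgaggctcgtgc
Polr2a, chr11:69758634-69758883, minus strand: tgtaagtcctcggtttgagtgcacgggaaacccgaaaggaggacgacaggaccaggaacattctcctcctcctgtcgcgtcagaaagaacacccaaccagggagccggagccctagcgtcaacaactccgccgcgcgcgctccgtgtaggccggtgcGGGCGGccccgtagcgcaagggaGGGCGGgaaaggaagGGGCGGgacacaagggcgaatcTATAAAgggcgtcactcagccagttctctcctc

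The Hprt window holds 2 GC boxes, the Tbp window 1, the Ppia window 4 and the Polr2a window 3. A TATA box begins 29 bases before the start of Ppia and 33 bases before the start of Polr2a. Among 32851 promoters of the same length, 32.7% held a GC box and 12.4% a TATA box. Ppia, which was higher in the persistent populations, and Polr2a, which was lower, thus share both motifs. The Gusb window held none of the motifs searched.

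The level of Hprt was highest in Pers1 and Pers2, above each other population. Its log2 values were 11.39, 11.32 and 11.47 in Tnaive and 11.51, 11.46 and 11.54 in Teff. The Pers1 libraries had 12.13, 12.22 and 12.27, and the Pers2 libraries 12.27, 12.07 and 12.29. In PAt the values were 11.25, 11.56 and 11.34, and in Arrested they were 11.29, 11.27 and 11.45. The lowest persistent library lay above the highest of the 12 other libraries, while among the other 4 populations the libraries overlapped in every pair but Teff and Arrested. In the persistent populations, Hprt rose above PAt and Arrested by a log2 value of 0.85 (standard error 0.053, 95% interval 0.74 to 0.96, limma adjusted p = 8e-12), a 1.8-fold difference. It rose by 0.82 against Tnaive (standard error 0.065) and by 0.71 against Teff (standard error 0.065). In order of level, Pers2 and Pers1 did not differ beyond their spread, Pers1 and Teff differed by 0.70 (limma adjusted p = 8.4e-08), and Teff, Tnaive, PAt and Arrested did not differ from their neighbours. Teff against Tnaive gave 0.11 with an interval from -0.04 to 0.27, so a difference of 0.5 lay outside it.

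Hprt belongs to purine salvage. Of 20 other genes of purine salvage and nucleoside metabolism, 10 rose and 3 fell in the persistent populations against PAt and Arrested, with a median log2 fold change of 0.08, where 35.9% of all tested genes rose and 35.1% fell, with a median of -0.01. Dck, deoxycytidine kinase, rose most (1.27), and Ampd3, an AMP deaminase, fell most (-0.96). Aprt, the salvage enzyme for adenine, rose by 0.40 and Paics, of purine synthesis, by 0.64. Over the 18 libraries the genes most like Hprt were Orc6 (origin recognition, Pearson r = 0.99), Hat1 (histone acetylation, r = 0.98) and Paics (r = 0.98). The points of these correlations fall into the 6 populations and share libraries and depth.

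Actb had the highest level of the 7 and the most differences between populations. Its log2 values were 16.71, 16.73 and 16.83 in Tnaive and 16.98, 16.93 and 17.02 in Teff. The Pers1 libraries had 17.56, 17.54 and 17.64, and the Pers2 libraries 17.19, 17.24 and 17.15. In PAt the values were 16.72, 16.61 and 16.77, and in Arrested they were 16.91, 16.97 and 16.87. Of the 15 pairs of populations, 13 differed at an adjusted p under 0.05. No share over all tested genes is given beside this count of pairs. Actb rose by 0.58 (standard error 0.041, limma adjusted p = 6.1e-11) in the persistent populations against PAt and Arrested, by 0.63 against Tnaive and by 0.41 against Teff. It was the only one of the 7 genes that rose in Teff against Tnaive, by 0.22 (standard error 0.058, limma adjusted p = 0.0023). It was also the one with a clear step within the persistent pair, where Pers2 fell by 0.39 below Pers1 (standard error 0.058, limma adjusted p = 0.00017) and the libraries did not overlap.

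The partners of actin moved with it. Of 20 genes for actin and actin regulators, 17 rose and 1 fell in the persistent populations against PAt and Arrested (median 0.56). Of all tested genes, 35.9% rose and 35.1% fell in that comparison. Arpc5, of the ARP2/3 complex that branches filaments, rose most (0.97), while Mkl1, the actin-sensing coactivator of SRF, fell (-0.36). In Teff against Tnaive, 14 of the 20 rose and 0 fell, where 31.3% of all tested genes rose and 27.7% fell. From Pers1 to Pers2, 15 of the 20 fell and 0 rose, with a median of -0.24, where 4.56% of all tested genes fell and 6.02% rose, with a median of 0.00. Among them Cfl1, cofilin, fell by 0.37 and Pfn1, profilin, by 0.27. Pfn1 (r = 0.99), Cfl1 (0.97) and Myl12a (0.97) were the genes most like Actb over the 18 libraries. Actg1, which encodes the other cytoplasmic actin and shares a stretch of 337 bases at 91.1% identity with Actb, rose by 0.89 in the persistent populations against PAt and Arrested. Whether reads of such stretches were counted for the other gene was not tested. Longer stretches are shared with Lrrc58 (1347 bases at 90.6%) and the pseudogene Gm15725 (1128 bases at 92.1%).

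Ppia was high in the persistent populations and lowest in Teff. Its log2 values were 15.31, 15.16 and 15.20 in Tnaive and 15.01, 14.9995 and 14.93 in Teff. The Pers1 libraries had 15.73, 15.63 and 15.75, and the Pers2 libraries 15.63, 15.50 and 15.56. In PAt the values were 15.17, 15.13 and 15.15, and in Arrested they were 15.08, 15.09 and 15.05. Ppia rose by 0.52 (standard error 0.035, limma adjusted p = 3e-11) in the persistent populations against PAt and Arrested, by 0.41 against Tnaive and by 0.66 against Teff. In Teff against Tnaive it fell by 0.24 (standard error 0.050, limma adjusted p = 0.00027) on the deposited scale and by 0.33 after the libraries had been centred on their medians, but was 0.04 higher after quantile normalisation (adjusted p = 0.52). Over the 25 alternatives of that comparison the adjusted p ran from 1.3e-05 to 0.52.

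The value of Ppia carries a further limit. Annotated transcripts of 34 other genes, 32 of them pseudogenes, share at least 300 bases with it at 90% identity or more. Of these, only E030024N20Rik has a row of its own in the table, and it rose by 0.40 in the persistent populations against PAt and Arrested (standard error 0.11, limma adjusted p = 0.0023), in the direction of Ppia. How reads that match several copies were counted is not given in the sources used here. Of 14 other cyclophilins, 7 rose and 2 fell in that comparison (median 0.09, against 35.9% higher and 35.1% lower over all tested genes), from Ppil1, of the spliceosome, at 1.46 to Nktr at -0.23. Nhp2 (r = 0.98), Cct5 (0.97) and Pmm1 (0.97) were most like Ppia over the 18 libraries.

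Gusb and Ywhaz took the same shape with smaller steps. The log2 values of Gusb were 10.75, 10.59 and 10.70 in Tnaive and 10.78, 10.65 and 10.79 in Teff. In Pers1 they were 11.13, 11.17 and 11.06, and in Pers2 they were 11.09, 11.04 and 10.95. The PAt libraries had 10.61, 10.67 and 10.56, and the Arrested libraries 10.62, 10.61 and 10.59. Every persistent library was above every other library, and among the other 4 populations all pairs but Teff and Arrested overlapped. Gusb rose by 0.46 (standard error 0.042, limma adjusted p = 3.5e-09) in the persistent populations against PAt and Arrested, by 0.39 against Tnaive and by 0.33 against Teff. Of 20 other lysosomal glycosidases and related hydrolases, 11 rose and 8 fell in the first of these comparisons (median 0.14, against 35.9% higher and 35.1% lower over all tested genes), from Glb1, a galactosidase, at 1.29 to Galc, a galactosylceramidase, at -0.62. The genes most like Gusb over the 18 libraries were Rcc1 (r = 0.97), Arid3a (0.96) and Slc25a5 (0.96), none of them lysosomal.

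For Ywhaz, the log2 values were 14.13, 14.08 and 14.15 in Tnaive and 14.09, 14.03 and 14.10 in Teff. The Pers1 libraries had 14.52, 14.50 and 14.54, and the Pers2 libraries 14.40, 14.25 and 14.41. In PAt the values were 14.01, 14.08 and 13.996, and in Arrested they were 14.01, 14.03 and 14.20. Here too all 6 persistent libraries lay above the 12 others. A pseudogene, Gm4202, shares 733 bases with Ywhaz at 99.9% identity, a closer match than those found for Actb. How reads that match both were counted is not given in the sources used here. Ywhaz rose by 0.39 (standard error 0.037, limma adjusted p = 7.7e-09) in the persistent populations against PAt and Arrested, by 0.32 against Tnaive and by 0.37 against Teff. It fell by 0.17 from Pers1 to Pers2 (standard error 0.052, limma adjusted p = 0.047), a call that was lost on leaving out any of 14 of the 18 libraries and kept only without Pers2 replicate 3, PAt replicate 2, Arrested replicate 1 or Arrested replicate 3, with an adjusted p from 0.019 to 0.23 over all 25 alternatives. Of 6 other 14-3-3 genes, 5 rose and 1 fell in the persistent populations against PAt and Arrested (median 0.68, where 35.9% of all tested genes rose and 35.1% fell), from Ywhah at 1.02 to Sfn at -0.46. Hnrnpa2b1 (r = 0.99), Hspa4 (0.98) and Xrn2 (0.98) were most like Ywhaz over the 18 libraries.

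Tbp varied least of the 7. Its log2 values were 10.09, 10.26 and 10.20 in Tnaive and 10.05, 10.01 and 9.97 in Teff. In Pers1 they were 10.08, 9.94 and 10.07, and in Pers2 they were 9.99, 10.08 and 10.14. The PAt libraries had 10.004, 9.92 and 9.84, and the Arrested libraries 9.97, 10.07 and 9.97. Tnaive was highest and PAt lowest, and no neighbours in the order of the 6 populations differed beyond their spread. The persistent populations against PAt and Arrested gave 0.09 with a 95% interval from -0.02 to 0.19 (limma adjusted p = 0.12), which held no difference as large as 0.5. Against Teff they gave 0.04 with an interval from -0.08 to 0.17, a value that turned to -0.02 with centred libraries and -0.03 with quantile normalisation.

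Where Tbp did differ, Tnaive was the high population. It fell by 0.22 (standard error 0.060, limma adjusted p = 0.0043) in PAt and Arrested against Tnaive, a call that held in all 25 alternatives. In Teff against Tnaive it fell by 0.18 (standard error 0.069, limma adjusted p = 0.035), and the call was lost without Tnaive replicate 2 (adjusted p = 0.15), Tnaive replicate 3 (0.082), Teff replicate 2 (0.064) or Teff replicate 3 (0.10), within a range of 0.0031 to 0.15 over the 25 alternatives. The persistent populations against Tnaive gave -0.13 (limma adjusted p = 0.051), which passed the threshold in 8 of 25 alternatives, centred (-0.28) and quantile normalised (-0.24) values among them, with adjusted p from 0.00033 to 0.24. Tbp overlaps Pdcd2, on the opposite strand, over 8094 bases, and the strand setting of the counting is not given in the sources used here. Pdcd2 did not pass the threshold in any of the 8 comparisons and gave 0.01 for the persistent populations against PAt and Arrested (standard error 0.068).

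Of the 19 TBP-associated and TBP-like genes that were tested, 11 rose and 7 fell in the persistent populations against PAt and Arrested (median 0.18), where 35.9% of all tested genes rose and 35.1% fell, from Taf9b at 0.58 to Taf4b at -0.89. The genes most like Tbp over the 18 libraries were Lrrc2 (r = 0.82), Piga (0.81) and Recql (0.78).

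Polr2a was the only one of the 7 genes that fell in the persistent populations. Its log2 values were 14.15, 14.25 and 14.23 in Tnaive and 14.07, 14.26 and 14.10 in Teff. In Pers1 they were 13.95, 13.9995 and 13.86, and in Pers2 they were 13.87, 13.92 and 13.81. The PAt libraries had 14.08, 14.09 and 14.13, and the Arrested libraries 14.23, 14.21 and 14.24. All 6 persistent libraries were below the 12 others. Polr2a fell by 0.26 against PAt and Arrested (standard error 0.037, limma adjusted p = 2e-06), by 0.31 against Tnaive and by 0.24 against Teff, and each of these kept its sign and its call in all 25 alternatives. The other subunits of the enzyme went the other way, since 11 of 12 rose and 1 fell in the persistent populations against PAt and Arrested (median 0.37), where 35.9% of all tested genes rose and 35.1% fell, from Polr2l at 0.81 to Polr2e at -0.15. Polr2b, the second largest subunit, rose by 0.31. The genes most like Polr2a over the 18 libraries were Dock8 (r = 0.94), Sec24c (0.94) and Kctd2 (0.94).

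**Figure D1:**
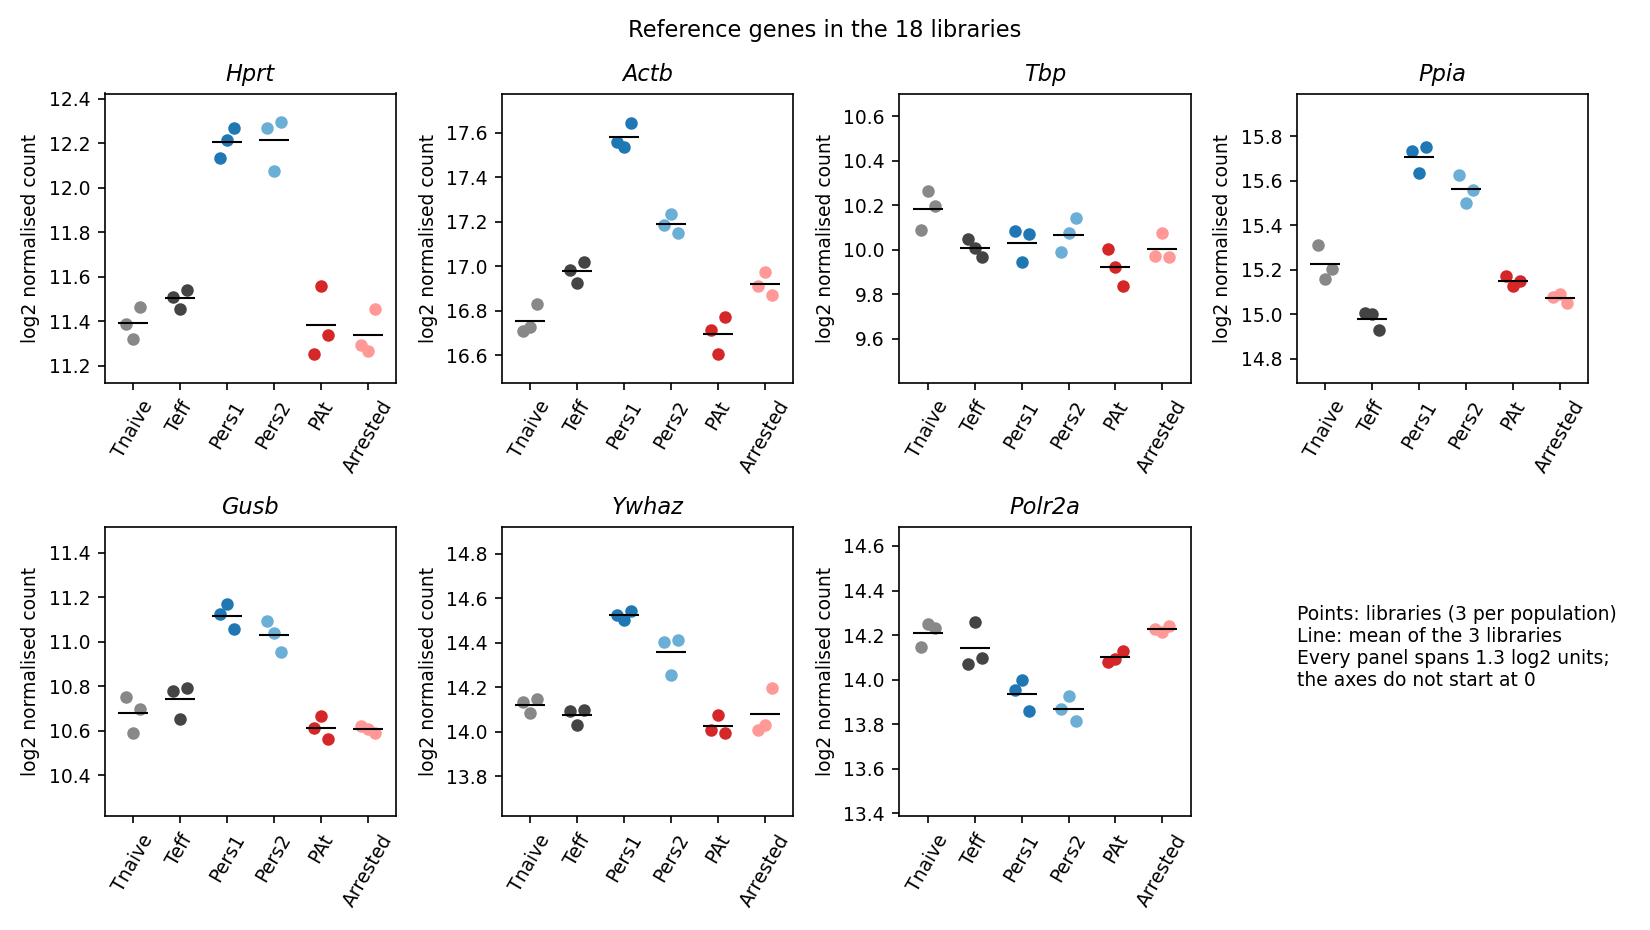
Log2 normalised counts of the 7 reference genes in each of the 18 libraries, in panels that all span the same distance. Points are libraries, 3 per population, and lines are their means. Pers1 and Pers2 stand above the rest for Hprt, Actb, Ppia, Gusb and Ywhaz and below it for Polr2a, while Tbp stays within 9.84 to 10.26.

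Set side by side, 6 of the 7 genes changed in the persistent populations against PAt and Arrested, 5 higher and 1 lower, where 70.9% of all tested genes changed. A changed reference gene was thus about as common as a changed gene in general. The members' median was 0.46, against -0.01 for all tested genes, so the reference genes leaned upwards. The libraries of the 2 sides did not overlap for 6 of the 7, as for 45.8% of all tested genes. Intervals within 0.5 in either direction were found for Tbp, Ywhaz and Polr2a, 3 of 7, against 60.4% of all tested genes, and all 7 intervals lay within 1. In that comparison all 5 B cell markers fell in the persistent populations (summed level 10.5 to 10.7 against 11.2 to 11.8), as did both CD8 T cell markers and 2 of 3 plasmacytoid dendritic cell markers. Of the others, 1 of 5 macrophage markers (Itgam) and 1 of 3 NK cell markers rose, and 1 macrophage marker fell. The part of such cells in these values was not tested.

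The same 6 genes, in the same directions, changed in the persistent populations against Tnaive, where 74% of all tested genes changed, and against Teff, where 58.7% did. These comparisons share the persistent libraries, so they are no independent repeats. Beside them, 4 of 5 B cell markers rose and both CD8 T cell markers fell against Tnaive. Of the others there, 2 of 5 macrophage and 1 of 3 NK cell markers rose, and 1 macrophage and 1 plasmacytoid dendritic cell marker fell. Against Teff, all 5 B cell, all 3 plasmacytoid dendritic cell, all 3 NK cell, both CD8 T cell and 4 of 5 macrophage markers fell, and 1 macrophage marker rose. The part of these markers in the members' values was not tested. The sizes against Tnaive moved with the scaling, to 0.18 for Ywhaz and 0.25 for Gusb with centred libraries and to 0.71 for Ppia with quantile normalisation. Between PAt and Arrested and Tnaive, Tbp and Ppia fell and the other 5 did not pass the threshold, where 50.7% of all tested genes changed, and all 7 intervals lay within 0.5, where 69.1% of all tested genes had such an interval. All 5 B cell markers rose past a log2 fold change of 1 there (median 1.83). Of the others, 2 of 5 macrophage, 1 of 2 CD8 T cell, 1 of 3 NK cell and 1 of 3 plasmacytoid dendritic cell markers rose. Another 2 macrophage markers fell, and the part of all these markers in the members' values was not tested. The fall of Ppia there was small (0.11, limma adjusted p = 0.037) and turned to a value of 0.01 with quantile normalisation (adjusted p = 0.80). It was lost without Tnaive replicate 1 (adjusted p = 0.26), Tnaive replicate 3 (0.061), PAt replicate 2 (0.057), PAt replicate 3 (0.0505) or Arrested replicate 3 (0.0503), within 0.0011 to 0.80 over the 25 alternatives.

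The 2 Timer-negative populations differed little in their reference genes. Between Teff and Tnaive, Actb rose and Tbp and Ppia fell, 3 of 7 where 59% of all tested genes changed, and all 7 intervals lay within 0.5, where 54.6% of all tested genes had such an interval. With quantile normalisation the fall of Ppia was not kept, as given above, and the rise of Actb came to 0.59. In Teff, all 5 B cell, all 3 plasmacytoid dendritic cell, all 3 NK cell, both CD8 T cell and 4 of 5 macrophage markers were higher than in Tnaive, and their part in these values was not tested. With centred libraries 41.8% of the genes that changed between Teff and Tnaive were higher, and with quantile normalisation 39.6%, against 53.1% on the deposited scale, so the directions of small changes in this comparison depend on the scaling.

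**Figure D2:**
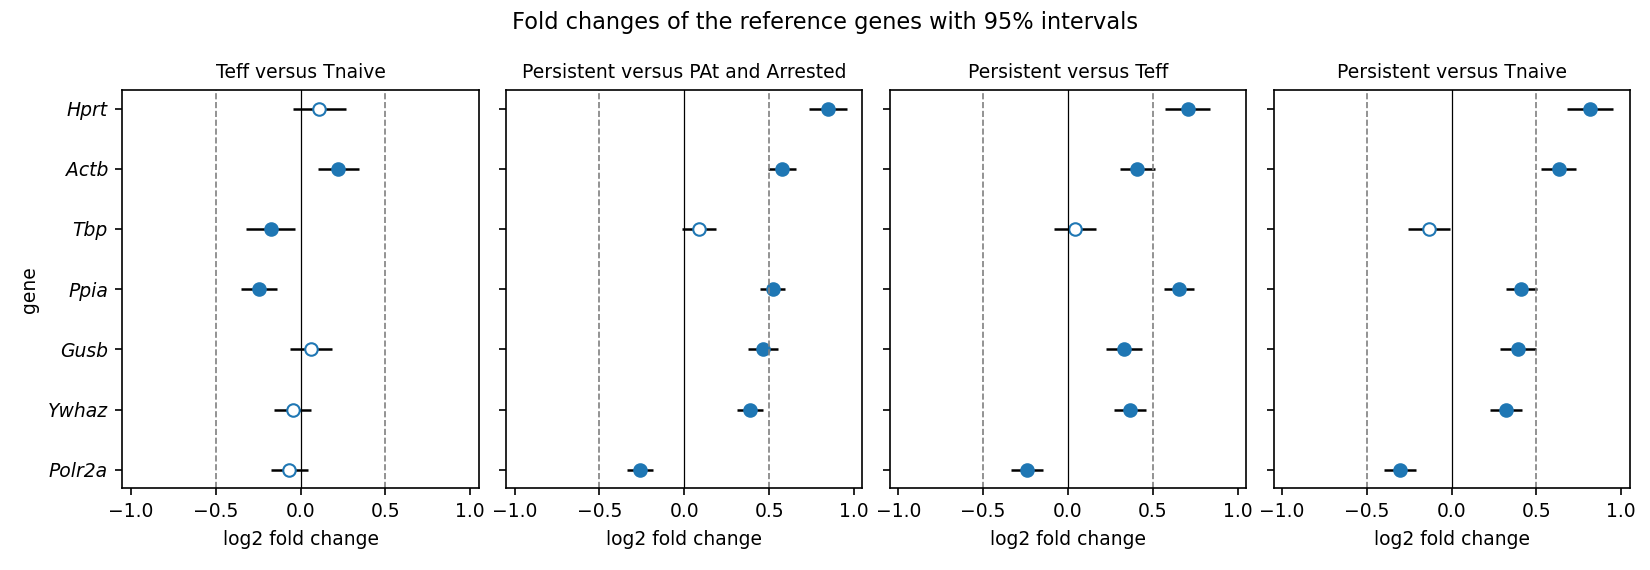
Log2 fold changes of the 7 reference genes in 4 comparisons, with 95% intervals from limma. Filled points passed an adjusted p of 0.05, and dashed lines mark 0.5 in either direction. All 7 intervals for Teff versus Tnaive lie within the dashed lines, while Hprt lies beyond them in the 3 comparisons of the persistent populations.

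The difference between the 2 kinds of shift was itself tested, as the change from PAt and Arrested to the persistent populations minus the change from Tnaive to Teff. All 7 genes differed, where 48.7% of all tested genes did. Markers of other cells had larger differences, with medians of -3.68 for 3 plasmacytoid dendritic cell, -3.14 for 5 B cell, -2.23 for 2 CD8 T cell, -2.17 for 5 macrophage and -1.40 for 3 NK cell markers. Of the macrophage markers 4 were lower and 1, Itgam, was higher. The part of all these markers in the members' values was not tested. The difference was 0.77 for Ppia (standard error 0.061, limma adjusted p = 1.3e-09), 0.74 for Hprt (standard error 0.092, limma adjusted p = 1e-06), and -0.20 for Polr2a (standard error 0.064, limma adjusted p = 0.015). For Polr2a the call was lost without Tnaive replicate 1 (adjusted p = 0.057) or Teff replicate 2 (0.077), within 0.00024 to 0.077 over 24 alternatives. For Tbp (0.26, limma adjusted p = 0.014) it was lost without Tnaive replicate 2 (adjusted p = 0.055, range 0.0083 to 0.055). For Actb (0.35, limma adjusted p = 0.00029) it was lost with quantile normalisation (0.13, adjusted p = 0.44, range 8.7e-05 to 0.44).

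Within the pairs of Timer+ populations the reference genes were closer together. From Pers1 to Pers2, Actb and Ywhaz fell and the other 5 did not pass the threshold, where 10.6% of all tested genes changed. Ppia gave -0.15 (limma adjusted p = 0.070), and it passed the threshold with the replicate block (adjusted p = 0.031), centred libraries (0.043), quantile normalisation (0.049) or without Pers1 replicate 2 (0.0496), within 0.031 to 0.25 over the 25 alternatives. From PAt to Arrested, Actb alone rose, by 0.22 (standard error 0.058, limma adjusted p = 0.027), where 5.04% did. That call was lost without PAt replicate 1 (adjusted p = 0.057), PAt replicate 2 (0.15), Arrested replicate 1 (0.058) or Arrested replicate 2 (0.14), and with quantile normalisation (0.73), with a range of 0.013 to 0.73 over the 25 alternatives.

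Over all 6 populations, a moderated F test found a difference for each of the 7 genes, where 85% of all tested genes differed. For Tbp the adjusted p was 0.036, and the call was lost without Tnaive replicate 2 (0.16), Tnaive replicate 3 (0.11), PAt replicate 2 (0.064) or PAt replicate 3 (0.092), with a range of 0.0020 to 0.16 over 24 alternatives of the limma model. For the other 6 the adjusted p was at most 4.4e-06.

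The range from the lowest to the highest population mean put these differences on 1 scale. It was 0.26 for Tbp, 0.36 for Polr2a, 0.50 for Ywhaz, 0.51 for Gusb, 0.73 for Ppia, 0.88 for Hprt and 0.88 for Actb, on the log2 scale. With centred libraries it was 0.35 for Tbp and 0.49 for Polr2a. The place of Polr2a in this order therefore depends on the scaling. In qPCR with perfect doubling, a log2 unit corresponds to a cycle. Of all tested genes, 12.2% had a smaller range than Tbp, 24.1% than Polr2a, 41.8% than Ywhaz, 43.4% than Gusb, 62.2% than Ppia, 70.5% than Hprt and 70.9% than Actb. The median was 0.51 for the members and 0.58 for all tested genes, so as a group the reference genes were near the middle of the table, and Hprt and Actb varied more than most genes. Among the 5927 genes with a mean of at least 10, 13.7% had a smaller range than Tbp and 78.0% a smaller one than Hprt. The range ran from 3.61 times the SD within populations for Tbp to 14.8 times for Actb. A range over 6 means is likely to exceed that SD without any difference between populations, so these ratios are a description. Hprt also had the widest spread between libraries of 1 population (SD 0.10), against 0.054 to 0.072 for the other 6.

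Other usual reference genes spread as widely. Of 12 such genes reported here, 9 rose and 1 fell in the persistent populations against PAt and Arrested (median 0.36), where 35.9% of all tested genes rose and 35.1% fell, and Pgk1 (1.22) and Gapdh (1.06), both of glycolysis, passed a log2 fold change of 1. Rpl13a, a ribosomal protein gene, was the one that fell (-0.27). The range of population means was 1.42 for Gapdh and 1.31 for Pgk1. At the other end it was 0.18 for Sdha, a subunit of succinate dehydrogenase, and 0.24 for Ipo8, a nuclear import receptor, both below Tbp. Among tested genes with a mean of at least 10, the smallest ranges were those of Mtf1 and Nudcd3 (0.04 each), Depdc5, Suds3 and Nosip (0.05 each). They are the extremes of 5927 genes picked in these same libraries. Each range was smaller than the gene's own SD within populations (0.073 for Nudcd3 to 0.105 for Nosip), and their stability in other libraries was not tested.

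**Figure D3:**
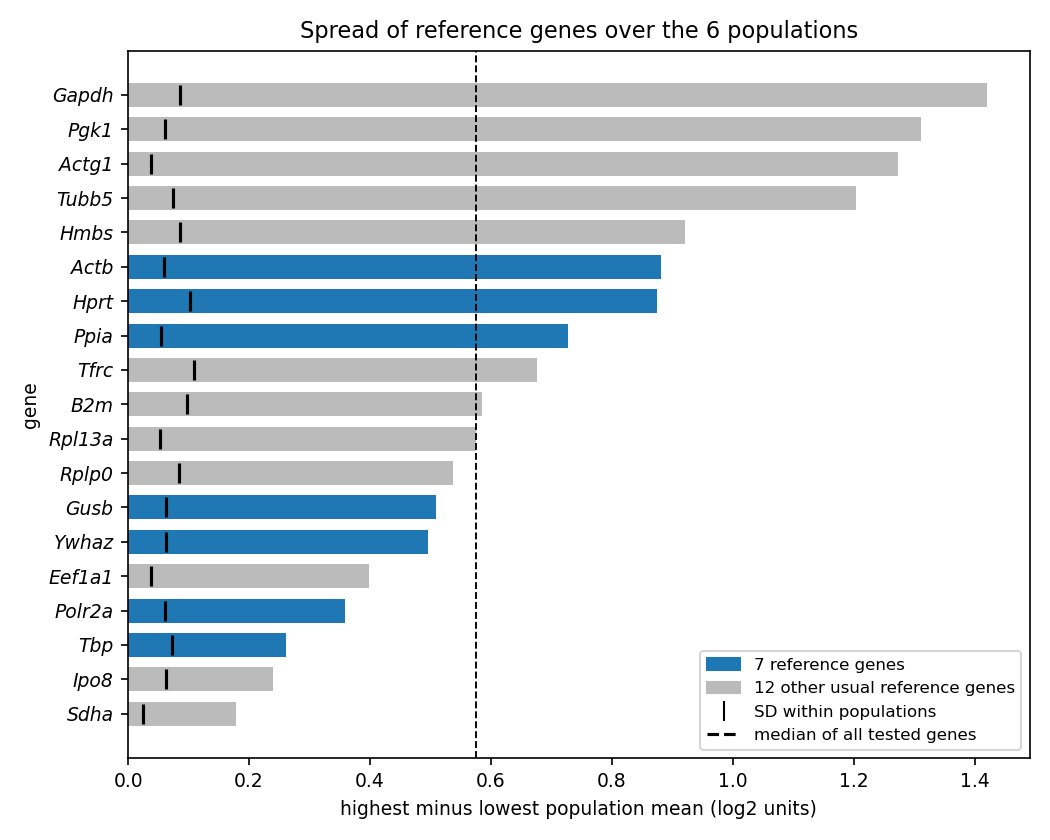
Difference between the highest and the lowest population mean, in log2 units, for the 7 reference genes (blue) and 12 other usual reference genes (grey). Black marks show the SD within populations, and the dashed line shows the median over the 13190 tested genes, 0.58. Actb, Hprt and Ppia lie beyond the median, and Tbp, at 0.26, is the lowest of the 7.

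A measure that needs no scaling between libraries ranked the genes otherwise. The stability value M of a gene is the mean, over the other 6, of the SD of their log2 ratio across the 18 libraries, and a low M is read as stable in reference gene selection. It was 0.19 for Ywhaz, 0.20 for Gusb, 0.22 for Ppia, 0.25 for Actb, 0.27 for Tbp, 0.30 for Hprt and 0.37 for Polr2a. When the gene with the highest M was dropped step by step, Polr2a went first and Tbp next, followed by Hprt, Actb and Ppia, and Gusb and Ywhaz were left as the most stable pair, with an SD of 0.088 for their log2 ratio. Tbp and Polr2a, with the smallest ranges on the deposited scale, were thus the first to be dropped, and the pair that was left had risen together in the persistent populations. Gusb and Ywhaz had r = 0.91 with each other over the 18 libraries, Hprt and Gusb 0.94, and Hprt and Polr2a -0.89, while Tbp lay between 0.02 and 0.18 with the other 6. With Mki67, r was 0.79 for Hprt, 0.77 for Actb, 0.74 for Gusb, 0.66 for Ywhaz, 0.58 for Ppia, -0.34 for Tbp and -0.78 for Polr2a. These correlations are over libraries that fall into 6 populations and are given as a description. Once population means had been removed, Hprt and Ywhaz still had r = 0.83 and the other pairs of members ran from -0.49 to 0.20.

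**Figure D4:**
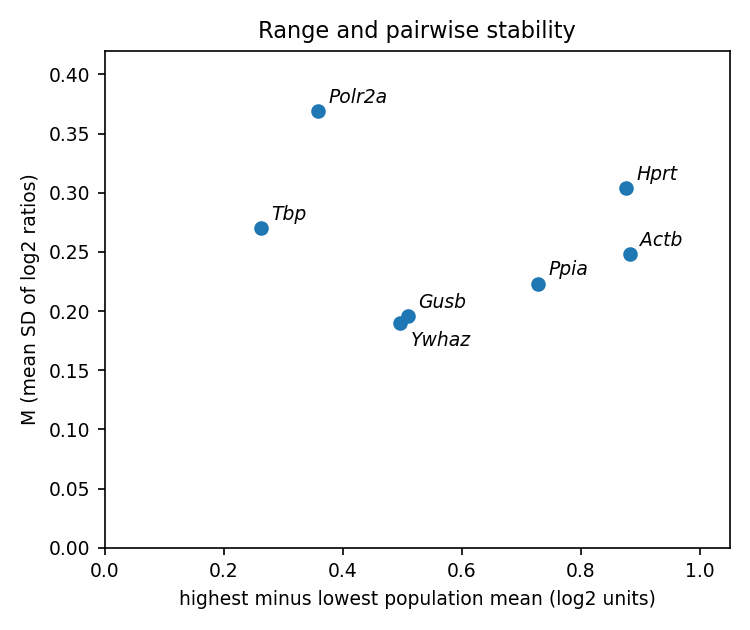
Pairwise stability M against the range of population means for the 7 reference genes, both in log2 units. On the deposited scale, Tbp and Polr2a combine the smallest ranges (0.26 and 0.36) with M values of 0.27 and 0.37, and Ywhaz and Gusb have the lowest M at ranges of 0.50 and 0.51.

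The size of the reference genes' own changes can be read from what each does to other genes. For this, the log2 value of 1 reference gene was subtracted from every gene in each library and the model was fitted again, as a qPCR calculation would do. The subtraction moves the fold change of every gene by that of the reference, so the counts restate the changes above on the scale of a whole experiment and are no further evidence for them. With persistent set against PAt and Arrested, 990 genes passed the study's rule on the deposited scale, 625 higher and 365 lower. On Tbp there were 1016, 544 higher and 472 lower. On Hprt there were 4874, 210 higher and 4664 lower, so that 4.31% of the calls were higher, against 63.1% on the deposited scale. On Polr2a the split turned the other way, with 1050 higher and 176 lower. The counts were 2340 on Actb, 2037 on Ppia, 1748 on Gusb and 1478 on Ywhaz, with 11.5% to 23.5% higher. Between Teff and Tnaive, the counts ran from 1443 on Hprt and on Gusb to 1692 on Ppia, against 1472 on the deposited scale. The split of that comparison ran from 930 higher and 549 lower on Actb (62.9% higher) to 1538 higher and 154 lower on Ppia (90.9%), against 1171 and 301 (79.6%) on the deposited scale.

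Foxp3 and Il2 show the same arithmetic for single genes, Il2 being an mRNA that the study quantified by qPCR relative to Hprt. That qPCR compared naive, CD44hi effector and Blue+Red+ Timer cells of Foxp3-EGFP/Scurfy mice. It did not set persistent against PAt and Arrested populations. Foxp3, the transcription factor of regulatory T cells, had values of 14.45, 14.41 and 14.40 in Arrested and 14.57, 14.36 and 14.65 in PAt. The values were 14.68, 14.56 and 14.58 in Pers1 and 14.85, 14.81 and 14.81 in Pers2. In the persistent populations against PAt and Arrested it rose by 0.24 on the deposited scale (standard error 0.048, limma adjusted p = 0.00014), by 0.16 on Tbp (standard error 0.064, limma adjusted p = 0.032) and by 0.50 on Polr2a (standard error 0.053, limma adjusted p = 6.5e-09). It fell by 0.61 on Hprt (standard error 0.083, limma adjusted p = 2.1e-07), by 0.33 on Actb, by 0.28 on Ppia, by 0.22 on Gusb and by 0.14 on Ywhaz, each with an adjusted p of at most 0.042. Each of these values is the deposited difference less that of the reference. Against Teff, where Foxp3 differed by much more, it rose on every one, by 3.47 on Hprt to 4.42 on Polr2a, and by 4.18 on the deposited scale.

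Il2, the T cell growth factor, was near the lower end of the table, with values of 4.75, 4.78 and 4.81 in Teff and 3.22 to 3.72 in the 15 other libraries. The transform of the deposited values draws differences of such genes towards 0. With persistent set against PAt and Arrested, Il2 gave -0.13 on the deposited scale (limma adjusted p = 0.14) and 0.14 on Polr2a (limma adjusted p = 0.16). It fell by 0.97 on Hprt (standard error 0.10, limma adjusted p = 2.4e-09) and by 0.21 on Tbp (standard error 0.083, limma adjusted p = 0.025). In Teff against Tnaive, Il2 rose on each of the 7, from 1.10 on Actb to 1.57 on Ppia, and 1.33 on the deposited scale.

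**Figure D5:**
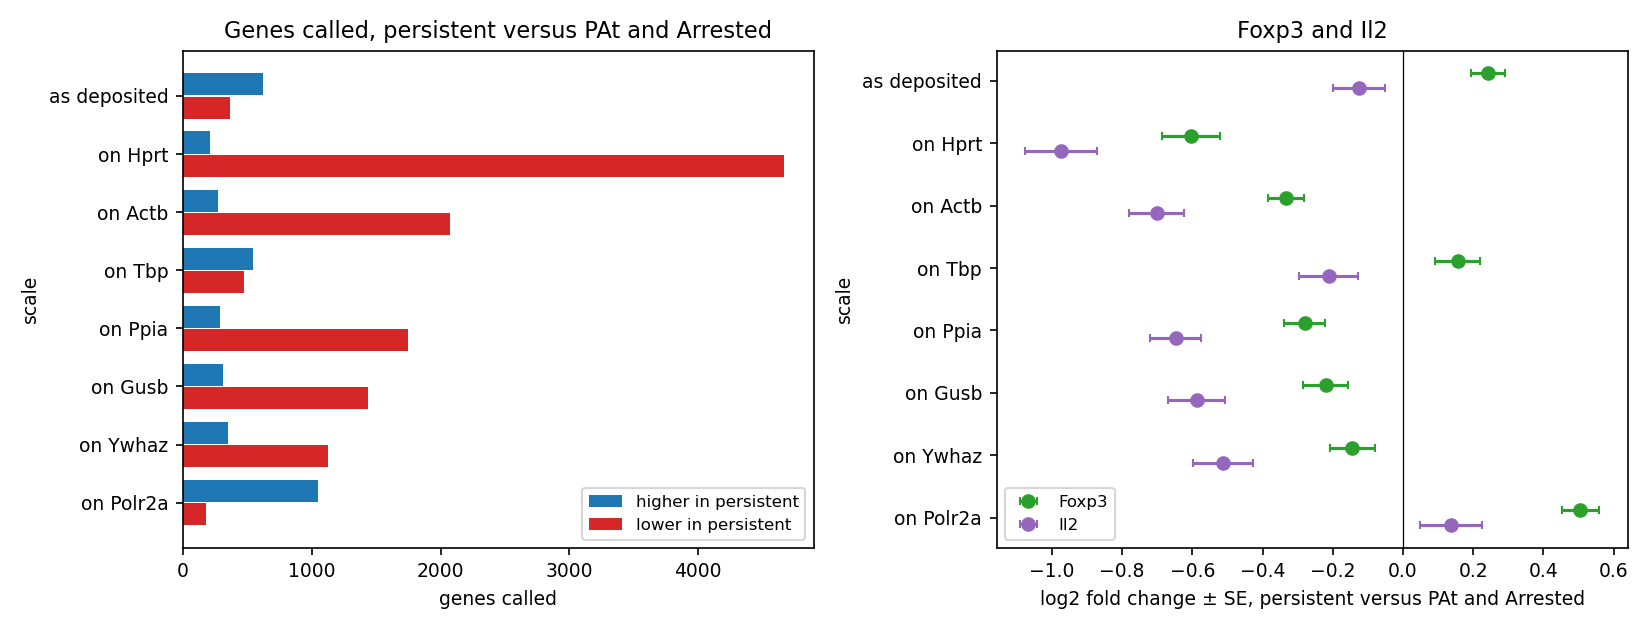
Left, number of genes past an adjusted p of 0.05 and a log2 fold change of 1 in persistent against PAt and Arrested libraries, higher (blue) and lower (red), on the deposited scale and after rescaling on each reference gene. Right, log2 fold change and standard error of Foxp3 and Il2 in the same comparison; Foxp3 ranges from -0.61 on Hprt to 0.50 on Polr2a.

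Levels between genes were compared per length of the shortest principal transcript, averaged over the 6 populations. As the log2 of normalised counts per kilobase, Actb stood at 16.1, followed by Ppia (15.1), Ywhaz (13.1), Polr2a (11.3), Hprt (11.3), Gusb (9.37) and Tbp (9.12). The order of stability by range did not follow this order, since Tbp and Polr2a, the steadiest by range on the deposited scale, were the lowest and the fourth of the 7.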

How the data were processed

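RNA-seq values of 7 reference genes were compared between 6 sorted populations with 3 libraries each. The authors prepared stranded mRNA libraries, aligned reads with TopHat2 2.0.9 (CASAVA 1.8.2 and FastQC 0.11.2 in the submitters' processing notes) to mm10, and deposited log2 normalised counts, in form those of DESeq2's regularised log transform, which draws low genes towards the mean. The read counter and its strand setting are not given in the sources used here.

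The 13190 genes with a mean of at least 3 were tested (2212 left out) with limma 3.58.1 in R 4.3.3, in 1 model of the 6 populations with 12 residual degrees of freedom, variances moderated along a trend, and p-values adjusted by Benjamini-Hochberg; each adjusted p is limma's. On simulated data for the comparison of persistent with PAt and Arrested libraries (13190 genes, 200 changed by 0.5), 96% of changed genes were recovered, with 12 false calls. The simulated noise was independent between genes and libraries, and far fewer genes changed than the 70.9% called in the data. These rates therefore may not hold for the data. Stretches shared between transcripts were sought with BLAST. The members, gene lists and tests were chosen with earlier results of these data known. Of the list of other reference genes, 2 are not reported here, so its counts and median cover the 12 that are. Pdcd2 and E030024N20Rik were chosen for their position and sequence. From each list the genes with the highest and lowest fold change that passed the threshold are named, and for each member the 3 genes with the highest r. Aprt, Paics, Cfl1, Pfn1, Actg1 and Polr2b were added after their values were seen.

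Replicate numbers were taken to pair libraries, since the deposited description has all populations sorted from each pool, though it does not say so outright. Deviations from population means had a median correlation of 0.166 over 45 pairs with the same number (-0.206 to 0.436) and of -0.064 over 90 other pairs. The labels do not say whether pools shared an experiment day, and p-values measure only the spread between these libraries. The alternatives tried were other filters, scalings, variance moderation, samples, call rules, a replicate block and leaving out each library.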

Additional observations from a re-analysis of the deposited data

Results flagged for a closer look

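The change from PAt and Arrested to the persistent populations differed from the change from Tnaive to Teff for all 7 reference genes, as tested by the interaction contrast in limma. The difference was 0.74 for Hprt, 0.35 for Actb, 0.26 for Tbp, 0.77 for Ppia, 0.40 for Gusb, 0.43 for Ywhaz and -0.20 for Polr2a on the log2 scale (limma adjusted p at most 0.015). A difference at this threshold was found for 48.7% of all tested genes. All 5 B cell, all 3 plasmacytoid dendritic cell, all 3 NK cell, both CD8 T cell and 4 of 5 macrophage markers were lower in the same contrast, with medians from -3.68 to -1.40. The other macrophage marker, Itgam, was higher, and the part of these markers in the contrast was not tested.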

How the results depend on the processing

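The calls on the 7 genes for the persistent populations against PAt and Arrested and against Teff (5 higher, 1 lower) were the same under every alternative. Without a threshold on the fold change, 7785 genes and 3 members were called between Teff and Tnaive, 9357 and 6 between persistent and PAt and Arrested, 9767 and 6 between persistent and Tnaive, 6684 and 2 between PAt and Arrested and Tnaive, 7739 and 6 between persistent and Teff, 1395 and 2 between Pers2 and Pers1, 665 and 1 between Arrested and PAt, and 6420 and 7 for the difference of the shifts. With centred libraries, 4 members were lower in Teff against Tnaive, 2 in persistent against Tnaive and 5 in PAt and Arrested against Tnaive. Of all tested genes, 4775, 6138 and 4615 were lower in the same comparisons with that scaling. The log2 fold change turned to -0.021 for Gusb (Teff against Tnaive) and -0.025 for Actb (PAt and Arrested against Tnaive). It turned to -0.018 for Tbp (persistent against Teff), -0.013 for Hprt (Pers2 against Pers1) and 0.022 for Gusb (Arrested against PAt). With quantile normalisation, 1, 2 and 1 members were lower in Teff, persistent, and PAt and Arrested against Tnaive, where 5132, 5879 and 4618 of all tested genes were. In Arrested against PAt 0 members were higher, where 279 of all tested genes were. Values turned to 0.037 for Ppia, 0.050 for Ywhaz and 0.032 for Polr2a (Teff against Tnaive), 0.014 for Ppia, 0.039 for Ywhaz and 0.057 for Polr2a (PAt and Arrested against Tnaive) and -0.025 for Tbp (persistent against Teff). Without the trend, 2 members were lower in persistent against Tnaive and 1 each in PAt and Arrested against Tnaive and Pers2 against Pers1. With only the populations compared, 1 each was lower in the last 2 and 0 higher in Arrested against PAt. With no filter 1 was lower in Pers2 against Pers1, and with a mean of at least 6, 2 in persistent against Tnaive. For the trend, population and filter settings, no share over all tested genes is given beside these member counts. In the 12 Timer+ libraries the range was 0.15 for Tbp and 0.63 for Ppia; with centred libraries it was 0.35 for Tbp and 0.49 for Polr2a; with quantile normalisation M of Actb was 0.34. Rescaled on the mean of 7 members or of Gusb and Ywhaz, 1437 and 1599 genes passed between persistent and PAt and Arrested, 2361 and 2514 against Tnaive, 1234 and 1263 against Teff, and 1683 and 1738 for the difference of the shifts. The cause of these changes was not tested.

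Leaving out 1 library at a time gave 12 to 26 genes between Arrested and PAt (26 without Arrested replicate 3), 0 to 1 members higher there, 1 to 2 lower in each of Pers2 against Pers1, PAt and Arrested against Tnaive, persistent against Tnaive and Teff against Tnaive, and 0 to 1 lower for the difference of the shifts. No share over all tested genes at any size is given beside these member counts. Values near 0 that changed sign ran from -0.031 to 0.021 for Gusb, -0.11 to 0.041 for Hprt and -0.0068 to 0.088 for Ywhaz (Arrested against PAt), from -0.075 to 0.0060 for Hprt (PAt and Arrested against Tnaive), and from -0.033 to 0.077 for Hprt and -0.0070 to 0.077 for Tbp (Pers2 against Pers1). With the replicate block, Ppia passed the threshold between Pers2 and Pers1 (-0.15, adjusted p = 0.031 against 0.070 without the block), and no other call on a member changed.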
